A study of Mus musculus with 32 samples.

Results

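Retinoic acid signalling in CD4+ T cells was followed here through 6 of the 24302 genes counted: Crabp2, which encodes a cytosolic retinoic acid binding protein, the nuclear receptor genes Rara, Rarg, Rxra and Rxrb, and Dhrs3, which encodes a retinal reductase. They were selected on their counts across these same 8 groups, as seen in earlier results, and were taken by name from every count file. Their levels and differences are therefore descriptions and carry no test. All 6 were among the 12332 genes kept by the filter on low counts, a share that supports nothing, because the filter keeps genes that are high in any group.

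Poly(A) RNA was sequenced from CD4+ T cells of spleen and of inguinal and axillary lymph nodes, in 32 libraries. All mice were C57BL/6J and were labelled KO or WT for Nr4a1, the gene of the nuclear receptor Nur77. Cells of each genotype were stimulated for 12 h through CD3 and CD28 with XCT790, stimulated with the compound coded CompA, stimulated without either, or left unstimulated, with 4 libraries per group. Both compounds were given at 10 µg/ml; XCT790 acts as inverse agonist on ERR alpha, a nuclear receptor related to the estrogen receptors. The sources used here give neither the vehicle nor how the KO allele was made, and no label ties the 4 libraries in a group to different mice.

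Retinoic acid is made from retinol through retinal. CRABP2 carries it to the nucleus, where RAR receptors, paired with RXR receptors, bind it on DNA and switch between corepressors and coactivators. RXR proteins also pair with other nuclear receptors, Nur77 among them. In T cells retinoic acid is known for inducing the gut homing receptors CCR9 and integrin alpha 4 beta 7 and for favouring regulatory T cells. DHRS3 turns retinal back into retinol and is known as a feedback enzyme that limits retinoic acid.

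Promoter sequences of the 3 receptor genes that were lower after stimulation in both genotypes are shown first, in the entries that hold AGGTCA, the core site that Nur77 and the retinoid receptors are known to read. RefSeq (GRCm38.p6) held 13 promoter entries for 5 of the 6 genes, each running from 250 bases before to 50 bases after a transcription start. The sequences are written 5′ to 3′ on the strand of the gene, position 0 is the first transcribed base, and capitals mark motif matches. The NBRE was searched as AAAGGTCA and the estrogen-related receptor element as TCAAGGTCA, both on both strands and both containing AGGTCA.
Rxra, chr2:27709042-27709341, plus strand: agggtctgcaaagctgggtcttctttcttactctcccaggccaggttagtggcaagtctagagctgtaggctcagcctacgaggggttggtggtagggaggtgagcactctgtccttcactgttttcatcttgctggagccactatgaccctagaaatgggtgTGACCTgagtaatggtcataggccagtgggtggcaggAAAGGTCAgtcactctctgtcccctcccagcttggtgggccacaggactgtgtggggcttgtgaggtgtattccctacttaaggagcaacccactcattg
Rara, chr11:98964622-98964921, plus strand: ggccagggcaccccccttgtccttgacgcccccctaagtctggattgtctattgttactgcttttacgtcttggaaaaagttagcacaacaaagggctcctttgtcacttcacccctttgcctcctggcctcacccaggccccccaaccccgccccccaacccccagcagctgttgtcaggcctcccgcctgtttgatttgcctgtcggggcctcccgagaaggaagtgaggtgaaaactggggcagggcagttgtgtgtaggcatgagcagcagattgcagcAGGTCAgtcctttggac
Rarg, chr15:102257473-102257772, minus strand: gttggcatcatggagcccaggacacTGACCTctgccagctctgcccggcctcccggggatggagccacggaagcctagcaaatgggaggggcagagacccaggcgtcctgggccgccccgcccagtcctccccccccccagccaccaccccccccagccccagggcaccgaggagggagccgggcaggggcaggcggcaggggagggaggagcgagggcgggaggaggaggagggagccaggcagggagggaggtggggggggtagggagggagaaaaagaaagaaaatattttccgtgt
In the Rxra entry the capitals mark AGGTCA on the reverse strand from position -87 and an NBRE from position -50. In Rara they mark AGGTCA from position 33, inside the transcript, and in Rarg AGGTCA on the reverse strand from position -225. AGGTCA stood in 16.3% of 32817 mouse promoter entries, the NBRE in 1.51% and the estrogen-related receptor element in 0.424%. The other 10 entries, which include all those of Rxrb and Dhrs3 and further entries of Rxra, Rara and Rarg, held none of these letters. Each receptor gene shown thus also has an entry without a match. Direct repeats of the site AGGTCA or its variants, spelled GGGTCA, spelled AGTTCA or spelled GGTTCA, spaced by 1, 2 or 5 bases, the layout that RAR with RXR is known to bind, were in none of the 13 entries and in 0.222%, 0.268% and 0.0975% of all entries. A match describes letters in a window and shows no binding.

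Several facts of the libraries touch the results. Gene counts per library lay between 16.0 and 23.7 megacounts. The Nr4a1 transcript was not lower in libraries labelled KO: it averaged 332 ± 128 CPM (gene counts scaled to a common library size with TMM factors) in KO-labelled and 166 ± 32.7 CPM in WT stimulated cells, and among unstimulated cells 94.2 ± 10.9 CPM in KO-labelled and 71.6 ± 21.4 CPM in WT cells (SD, n = 4 each). For this reason the KO groups are named KO-labelled, and gene counts cannot tell whether the transcript still gives Nur77 protein. CD4 T cell markers were high in every group, with 4448 to 6725 summed CPM over 10 genes. The 24 myeloid and dendritic cell markers together stood at 144 to 202 CPM in KO-labelled stimulated libraries and at 769 to 1668 CPM in WT stimulated libraries. They stood at 1063 to 2503 CPM in KO-labelled unstimulated and at 2698 to 4061 CPM in WT unstimulated libraries. In the inhibitor groups their sum was 119 to 299.9 CPM, so the WT stimulated libraries stood apart from the other stimulated groups. Csf1r, the receptor that defines macrophages, was at 0.79 ± 0.565 CPM in KO-labelled and 177 ± 116 CPM in WT stimulated cells. Their part in the results was not tested.

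**Figure D1:**
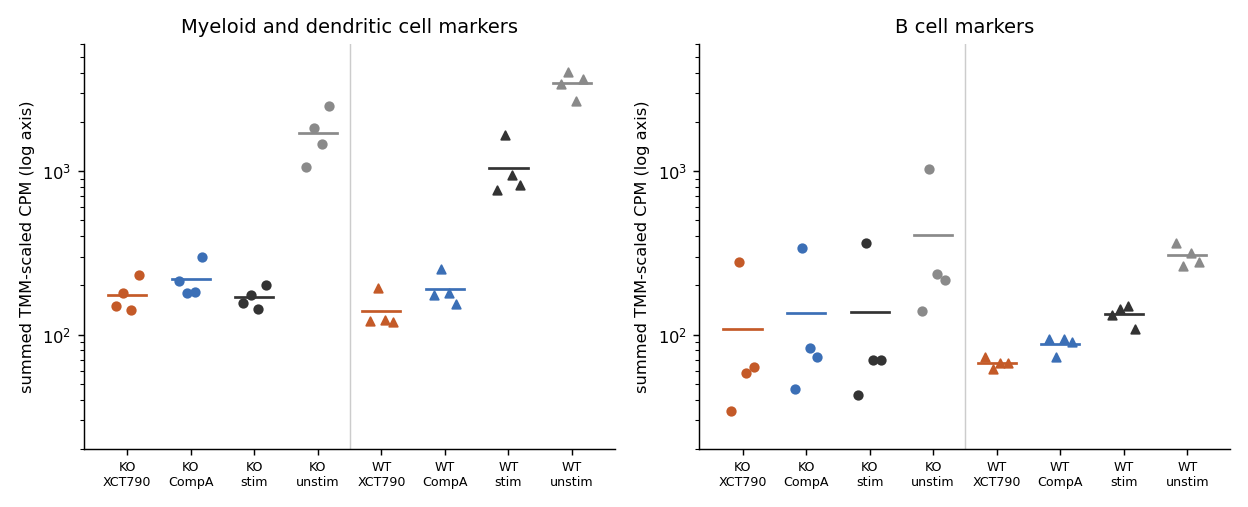
Summed CPM (log axis) of 24 myeloid and dendritic cell markers (left panel) and 16 B cell markers (right panel) in each library, by group; circles are KO-labelled, triangles WT, and bars the group means. Myeloid markers lay between 769 and 1668 CPM in the WT stimulated libraries and between 119 and 299.9 CPM in the other stimulated groups, and the second KO-labelled library of each treatment had the highest B cell sum of its group.

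The myeloid signal bears on every comparison with WT stimulated cells. From 112 genes that were nearly absent from the other stimulated groups, the share of the WT unstimulated profile in the 4 WT stimulated libraries was estimated at 16.15, 46.51, 21.96 and 21.64 percent. A lower estimate from the same genes, the 10th percentile of their ratios, gave 10.15, 36.2, 16.99 and 17.99 percent. Values of the 6 genes with this share subtracted are given where they turn a printed value or move it by over 1.5 times, and in bulk RNA fewer cells of a type and less RNA per cell cannot be told apart. The subtraction also changed the spread shared by the whole fit. Between KO-labelled and WT cells with XCT790, a comparison without WT stimulated libraries, 9.51% of all genes were called before it and 5.9% after. A drop in calls after the subtraction therefore cannot be told apart from lost power.

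Crabp2 (chromosome 3, 87948666 to 87953376, GRCm38, plus strand) was almost silent in unstimulated cells and abundant after stimulation. KO-labelled stimulated libraries had 34.9, 20.7, 38.6 and 76.2 CPM, against 0.0391, 0.0439, 0.165 and 0.0436 CPM in KO-labelled unstimulated libraries. WT stimulated libraries had 77.3, 64, 77 and 94.7 CPM, against 0.0637, 0.0508, 0.167 and 0.0417 CPM in WT unstimulated libraries. Every stimulated library thus lay far above every unstimulated library of its genotype, and the unstimulated values rest on 1 to 4 reads each. Summed over libraries, 3508 counts in KO-labelled stimulated cells stood against 7 in KO-labelled unstimulated cells, and 5833 in WT stimulated cells against 6 in WT unstimulated cells. Scaled for library size these are ratios of 616 (95% interval 299 to 1532) in KO-labelled and 1011 (464 to 2757) in WT cells, with exact binomial intervals that cover counting error only. In the fit across all genes the log2 fold change was 9.07 ± 0.65 in KO-labelled and 9.86 ± 0.66 in WT cells (SE), in each genotype the second highest of 12332 genes. The macrophage marker Csf1r was at 0.79 CPM in KO-labelled stimulated and 338.5 CPM in KO-labelled unstimulated cells. The part of other cell types in the Crabp2 level was not tested. Subtracting the unstimulated share left the WT value at 10.34.

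**Figure D2:**
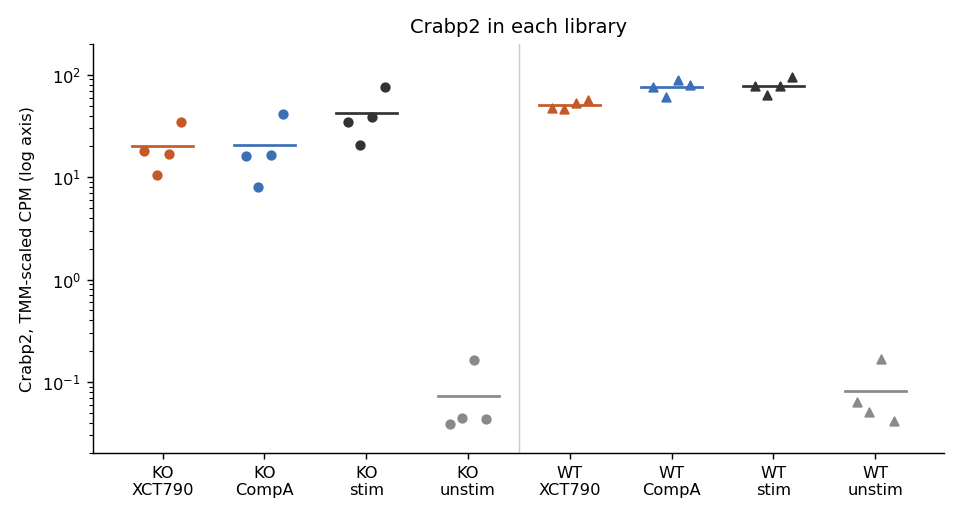
Crabp2 in each library in TMM-scaled CPM on a log axis, by group; circles are KO-labelled, triangles WT, and bars the group means. All 8 unstimulated libraries sit at or below 0.167 CPM, and the lowest stimulated library, KO-labelled with CompA, is at 7.95 CPM.

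XCT790 and CompA went with lower Crabp2 in KO-labelled cells, while in WT cells the lower level was seen with XCT790. KO-labelled libraries had 18.2, 10.6, 16.7 and 34.6 CPM with XCT790, against 34.9, 20.7, 38.6 and 76.2 CPM without it. The groups overlapped, but the library numbers fall into runs of 4 with 1 library of each treatment, and within each KO-labelled run the XCT790 library was the lower, at 0.522, 0.511, 0.431 and 0.454 of its stimulated partner. With CompA the KO-labelled libraries had 16, 7.95, 16.4 and 41.2 CPM, which is 0.459, 0.383, 0.425 and 0.54 of the stimulated library of the same run. The order of the runs was thus almost the same under each treatment: run 4 was the highest and run 2 the lowest in stimulated, XCT790 and CompA cells. The second run was also the highest in B cell markers, whose sum was 365 CPM in its stimulated library against 42.9 to 70.3 CPM in the other KO-labelled stimulated libraries. The part of the B cell transcripts was not tested, and without the second libraries the log2 fold changes in KO-labelled cells were -1.11 with XCT790 and -1.03 with CompA, against -1.09 and -1.07 with all of them. The size rests more on run 4: without its stimulated library the values were -0.65 with XCT790 and -0.62 with CompA, and without its CompA library the CompA value was -1.66.

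WT libraries had 47.4, 46.1, 53.6 and 56.3 CPM of Crabp2 with XCT790 and 76.1, 60.7, 88.2 and 79.7 CPM with CompA, against 77.3, 64, 77 and 94.7 CPM in stimulated cells without either. The XCT790 libraries lay below every stimulated library, and the CompA libraries overlapped them. The fitted log2 fold change in WT cells was -0.62 ± 0.34 with XCT790 and -0.04 ± 0.34 with CompA (SE). With the unstimulated share subtracted these values moved to -1.13 and -0.55, because taking out a profile without Crabp2 raises its level in the WT stimulated libraries. The lower estimate of the share gave -0.98 and -0.40.

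Between genotypes Crabp2 was lower in KO-labelled cells under each stimulated condition, and the groups were apart with the inhibitors. Library numbers go from 1 to 16 in WT and from 25 to 40 in KO-labelled cells, so no run holds both genotypes. In every comparison of genotypes here, the KO label and a difference between these sets of runs cannot be told apart. The fitted log2 difference between KO-labelled and WT cells was -0.87 ± 0.34 in stimulated cells, -1.34 ± 0.35 with XCT790 and -1.90 ± 0.36 with CompA (SE). With CompA the highest KO-labelled library was at 41.2 CPM and the lowest WT library at 60.7 CPM, and with XCT790 they were at 34.6 and 46.1 CPM. In stimulated cells without inhibitor the ranges overlapped, since the KO-labelled library of run 4 at 76.2 CPM exceeded the lowest WT library at 64 CPM. The difference in stimulated cells with the unstimulated share subtracted was -1.38, or -1.24 with the lower estimate, and without the KO-labelled stimulated library of run 4 it was -1.32. The difference between the genotypes in the CompA effect was -1.03 on the log2 scale with an SE of 0.49, and in the XCT790 effect -0.47 with an SE of 0.49. With the share subtracted these were -0.51 and 0.04 (SE 0.50 each), or -0.66 and -0.12 with the lower estimate, so neither exceeded 2 SE. Without the second KO-labelled libraries the genotype differences were -0.65, -1.14 and -1.64. In unstimulated cells 7 and 6 counts allowed no comparison, and the fitted difference was -0.08 with an SE of 1.73. By mean level the order ran from WT stimulated and WT CompA through WT XCT790 to KO-labelled stimulated, KO-labelled CompA and KO-labelled XCT790. Neighbours among these 6 stimulated groups overlapped except WT CompA with WT XCT790, and both unstimulated groups lay below them all.

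**Figure D3:**
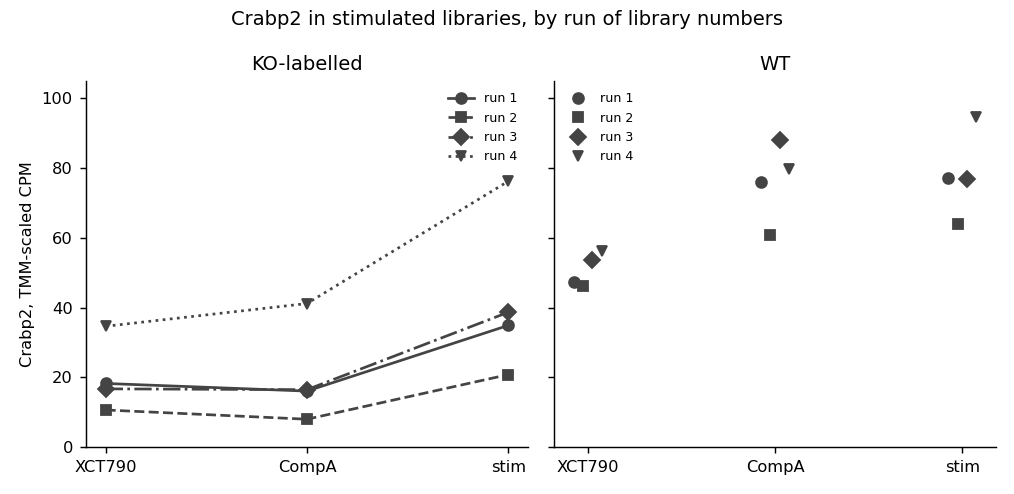
Crabp2 in TMM-scaled CPM in the stimulated libraries of each genotype, by run of library numbers. Lines join the KO-labelled libraries of a run. WT libraries are not joined because WT stimulated libraries correlated weakly by run with those of the inhibitors (r from 0.0143 to 0.307). In every KO-labelled run both inhibitor libraries lie below the stimulated library, at 0.383 to 0.54 of it.

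Rara (chromosome 11, 98927818 to 98974942, plus strand), which encodes the receptor known as the main RAR of T cells, was lower after stimulation in both genotypes. KO-labelled stimulated libraries had 25.2, 29.6, 24.5 and 22.7 CPM, against 63.8, 53.5, 54.5 and 48.3 CPM in KO-labelled unstimulated libraries. WT stimulated libraries had 24.6, 30.3, 28.5 and 29.7 CPM, against 37.4, 43.9, 44.6 and 50.2 CPM in WT unstimulated libraries. The stimulated and unstimulated groups did not overlap in either genotype, and the log2 fold change was -1.11 ± 0.13 in KO-labelled and -0.64 ± 0.13 in WT cells (SE). The WT value was -1.03 with the unstimulated share subtracted and -0.89 with the lower estimate. With XCT790 and CompA Rara averaged 28.4 ± 5.4 and 33.2 ± 5.9 CPM in KO-labelled cells (SD, n = 4 each). In WT cells it averaged 21.6 ± 2.2 and 28.9 ± 2.6 CPM (SD, n = 4 each). Those values stood against 25.5 ± 2.9 CPM in KO-labelled and 28.3 ± 2.6 CPM in WT stimulated cells. All of these inhibitor groups overlapped their stimulated group. All neighbours in the order of the 8 group means overlapped as well, from KO-labelled unstimulated as the highest to WT XCT790 as the lowest. Within each KO-labelled run the CompA library was the higher, at 1.258, 1.403, 1.315 and 1.207 of its stimulated partner. The fitted log2 fold changes with XCT790 and CompA were 0.16 and 0.38 in KO-labelled and -0.39 and 0.03 in WT cells (SE 0.13 each). With the unstimulated share subtracted the WT values were -0.02 and 0.40.

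Rarg (chromosome 15, 102234938 to 102257517, minus strand), the gene of the receptor RAR gamma, differed most among the receptors. KO-labelled stimulated libraries had 7.83, 12.2, 9.9 and 9.63 CPM, against 60.8, 64.7, 71.6 and 65.2 CPM in KO-labelled unstimulated libraries. WT stimulated libraries had 9.83, 15.8, 17.1 and 10.2 CPM, against 34.3, 37.6, 40 and 42.2 CPM in WT unstimulated libraries. No libraries overlapped, and the log2 fold change of stimulation was -2.73 ± 0.16 in KO-labelled and -1.54 ± 0.16 in WT cells (SE). With the unstimulated share subtracted the WT value was -3.21, or -2.67 with the lower estimate.

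The inhibitors did not go with the same Rarg levels in the genotypes. KO-labelled libraries had 11.1, 14, 13.7 and 11.8 CPM with XCT790 and 10.5, 13.9, 12.7 and 11.5 CPM with CompA, which overlapped the stimulated libraries. WT libraries had 7.14, 6.68, 5.9 and 6.01 CPM with XCT790 and 4.9, 6.65, 4.22 and 6.53 CPM with CompA, all below the WT stimulated libraries. The fitted log2 fold changes were 0.36 ± 0.16 and 0.30 ± 0.16 in KO-labelled cells and -1.04 ± 0.16 and -1.25 ± 0.17 in WT cells for XCT790 and CompA (SE). The WT values rest on the WT stimulated libraries: with the unstimulated share subtracted they turned to 0.60 and 0.39, and with the lower estimate they were 0.08 and -0.13. Within WT cells the highest Rarg levels after stimulation, 15.8 and 17.1 CPM, belonged to libraries 2 and 3, which had the highest myeloid sums of their group, 1668 and 945 CPM. Among unstimulated cells Rarg averaged 65.6 CPM in KO-labelled and 38.55 CPM in WT cells, with mean myeloid sums of 1712 and 3460 CPM. The part of myeloid cells in the Rarg level was not tested.

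Rarg was higher in KO-labelled than in WT cells in unstimulated cells and with each inhibitor, without overlap. The log2 difference was 0.77 ± 0.15 in unstimulated cells, 0.98 ± 0.16 with XCT790 and 1.12 ± 0.17 with CompA (SE). In stimulated cells without inhibitor it was -0.42 ± 0.16 with overlapping libraries, and 1.22 or 0.70 with the unstimulated share subtracted by the first or the lower estimate. Rarg lies on the same chromosome as Nr4a1, with 960143 bases between the genes, so an effect of the KO label and an effect of linked sequence cannot be told apart here.

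Rxra (chromosome 2, 27676440 to 27762957, plus strand), the gene of the partner receptor RXR alpha, was lower after stimulation and lower again with CompA. KO-labelled stimulated libraries had 33.5, 32.8, 43.6 and 36.5 CPM, against 45.4, 52.5, 59.4 and 73.8 CPM in KO-labelled unstimulated libraries. WT stimulated libraries had 40.3, 57.6, 47.5 and 45 CPM, against 63.7, 93.5, 65.3 and 83.1 CPM in WT unstimulated libraries. The log2 fold change of stimulation was -0.66 ± 0.14 in KO-labelled and -0.68 ± 0.14 in WT cells (SE), in neither genotype with overlap. The WT value was -1.08 with the unstimulated share subtracted and -0.95 with the lower estimate. With CompA KO-labelled libraries had 19.6, 21.1, 23.7 and 18.9 CPM, and WT libraries 17.1, 20.9, 17.3 and 17.4 CPM. These 8 libraries were the lowest of all 32, and every one lay below the stimulated libraries of its genotype. The log2 fold change with CompA was -0.81 ± 0.14 in KO-labelled and -1.39 ± 0.14 in WT cells (SE). The WT value was -1.01 with the unstimulated share subtracted and -1.14 with the lower estimate. With XCT790 Rxra averaged 32.6 ± 3.1 CPM in KO-labelled and 31.3 ± 2.2 CPM in WT cells, against 36.6 ± 4.9 CPM in KO-labelled and 47.6 ± 7.3 CPM in WT stimulated cells (SD, n = 4 each). The XCT790 groups overlapped the stimulated group in KO-labelled cells and did not in WT cells, where the log2 fold change of -0.61 was -0.22 with the unstimulated share subtracted.

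Rxrb (chromosome 17, 34031812 to 34038399, plus strand), which encodes RXR beta, varied least. Its group means lay between 74.8 ± 7.8 CPM in KO-labelled cells with CompA and 93.6 ± 4.5 CPM in WT cells with XCT790 (SD, n = 4 each). The KO-labelled stimulated libraries had 90.3, 99.9, 72.6 and 82 CPM, and the WT stimulated libraries 83.6, 83.5, 102 and 73.7 CPM. All neighbours in the order of the 8 means overlapped, and none of the 10 comparisons separated the libraries. The log2 fold change of stimulation was 0.15 ± 0.10 in KO-labelled and -0.07 ± 0.10 in WT cells (SE); the KO-labelled value turned to -0.18 when libraries were scaled by their totals, which shifted the median of all genes by -0.33.

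Dhrs3 (chromosome 4, 144892827 to 144928209, plus strand) was the least abundant of the 6 genes in unstimulated cells after Crabp2 and was lower still after stimulation. KO-labelled stimulated libraries had 1.02, 1.73, 1.25 and 1.79 CPM, against 4.3, 7.15, 6.48 and 7.85 CPM in KO-labelled unstimulated libraries. WT stimulated libraries had 1.29, 3.57, 2.25 and 1.89 CPM, against 6.43, 9.65, 5.39 and 7.76 CPM in WT unstimulated libraries. The groups did not overlap, and the log2 fold change was -2.15 ± 0.33 in KO-labelled and -1.70 ± 0.32 in WT cells (SE). With the unstimulated share subtracted the WT value was -4.72, or -3.08 with the lower estimate, which places it below the KO-labelled value. Between KO-labelled and WT stimulated cells the log2 difference was -0.64 ± 0.35 (SE) with overlapping libraries, and it turned to 2.36, or 0.74 with the lower estimate. With XCT790 the libraries held 10 to 35 reads of Dhrs3 in KO-labelled and 4 to 13 reads in WT cells, so the values there carry wide counting error. Dhrs3 averaged 0.988 ± 0.543 CPM with XCT790 and 1.01 ± 0.34 CPM with CompA in KO-labelled cells, and 0.478 ± 0.233 and 0.55 ± 0.294 CPM in WT cells (SD, n = 4 each). The WT log2 fold changes against stimulated cells, -2.23 with XCT790 and -2.03 with CompA, turned to 0.77 and 0.97 with the unstimulated share subtracted and were -0.85 and -0.66 with the lower estimate. The WT stimulated library with the most Dhrs3, at 3.57 CPM, was the second, which also had the highest myeloid sum. The part of myeloid cells in the Dhrs3 level was not tested.

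**Figure D4:**
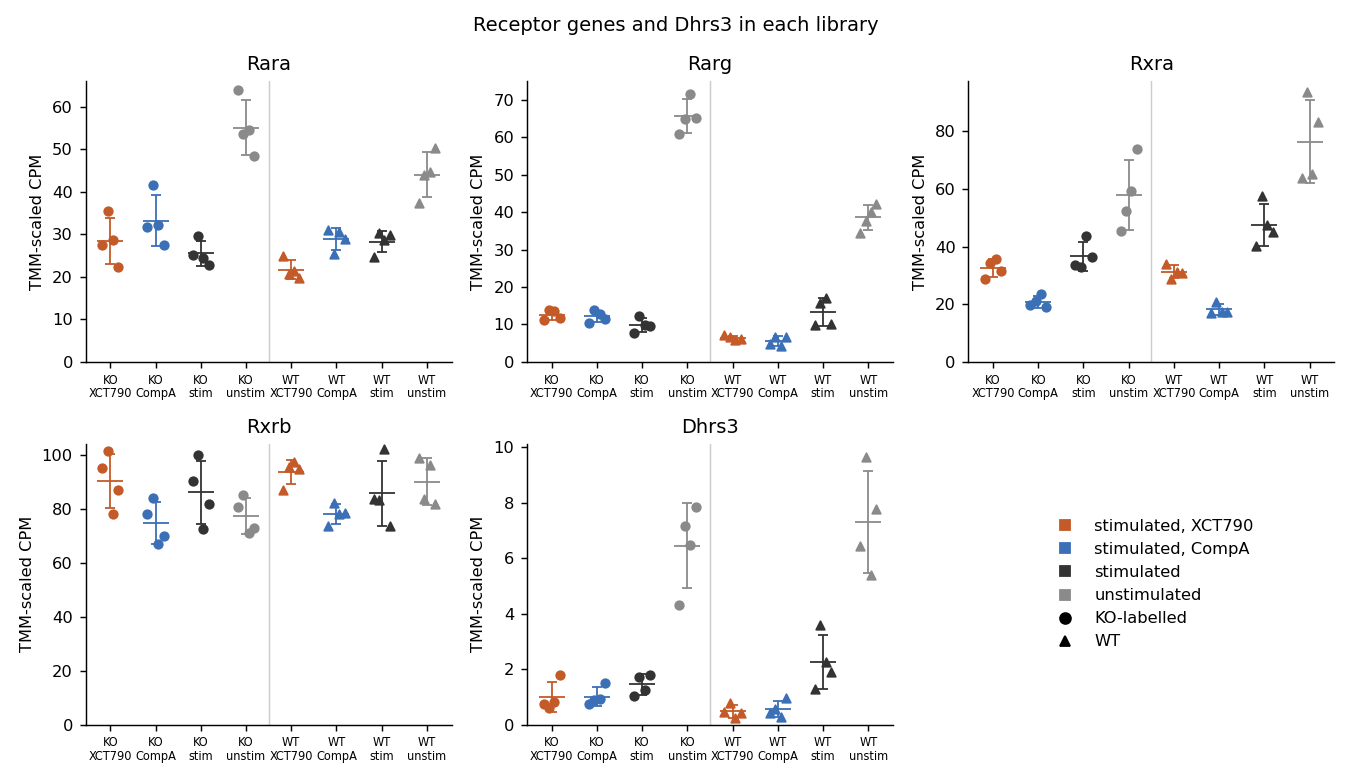
Rara, Rarg, Rxra, Rxrb and Dhrs3 in each library in TMM-scaled CPM, by group; circles are KO-labelled, triangles WT, and bars show mean ± SD of 4 libraries. Rarg is highest in KO-labelled unstimulated libraries (60.8 to 71.6 CPM), Rxra is lowest with CompA (17.1 to 23.7 CPM) and Rxrb changes little.

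Set per kilobase of exon, which allows levels of different genes to be compared, the leading gene differed between stimulated and unstimulated cells. In KO-labelled stimulated cells Crabp2 led at 32.2 ± 17.9 CPM per kb, followed by Rxrb at 21.7 ± 2.9, Rxra at 6.7 ± 0.9, Rara at 5.84 ± 0.67, Rarg at 2.32 ± 0.42 and Dhrs3 at 0.494 ± 0.127 CPM per kb (SD, n = 4). In WT stimulated cells Crabp2 was at 59.2 ± 9.5 CPM per kb and Rxrb at 21.6 ± 3 CPM per kb. In unstimulated cells Rxrb led, at 19.5 ± 1.7 CPM per kb in KO-labelled and 22.7 ± 2.2 CPM per kb in WT cells. There Rarg was second in KO-labelled cells at 15.4 ± 1 CPM per kb and behind Rxra and Rara in WT cells at 9.05 ± 0.79 CPM per kb. All annotated exons entered the length, so a gene read mainly from a short isoform is placed too low.

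Across comparisons the genes separated the libraries unevenly, and the rule that chose them used these values. After stimulation 4 of the 6 lay lower and 1 higher without overlap in both genotypes. Without overlap, 37.9% of all tested genes lay lower and 34.8% higher in KO-labelled cells, and 30.5% and 30.3% in WT cells. With XCT790 none of the 6 separated in KO-labelled cells (5.18% of all genes lower, 7.32% higher) and 4 were lower in WT cells (18.9%). With CompA 1 was lower (7.02%) and none higher (8.73%) in KO-labelled cells, and 3 were lower in WT cells (20.2%). Between KO-labelled and WT cells 1 was higher in unstimulated cells (11.3%) and none separated in stimulated cells (4.9% higher, 13.5% lower). With XCT790 1 was higher (10.8%) and 1 lower (8.82%) in KO-labelled cells, and with CompA likewise (8.36% and 6.94%).

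The other genes of the pathway come from 5 lists of uptake and binding proteins, enzymes, receptors with their partners, coregulators and known target genes. Of 117 such genes in the files 76 passed the filter, and 9 of the 41 that did not pass had no read. In KO-labelled cells 67 of the 76 changed after stimulation (edgeR adjusted p under 0.05), 18 rising and 49 falling, when 81.7% of all genes changed, 39.3% rising and 42.4% falling. In WT cells 60 changed, 16 rising and 44 falling, when 73.3% of all genes changed, 34.5% rising and 38.8% falling. The median log2 fold change of the 76 genes was -1.25 in KO-labelled cells, against -0.07 over all genes, and -0.68 in WT cells, against -0.11 over all genes. The WT median, over 75 genes, was -1.06 with the unstimulated share subtracted. The myeloid marker sums were lower after stimulation as well, and their part in these falls was not tested.

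Fabp5, which encodes the binding protein known for carrying retinoic acid to the receptor PPAR delta, rose with stimulation as Crabp2 was higher. It averaged 90 ± 13.6 CPM in KO-labelled stimulated and 10.6 ± 3.6 CPM in KO-labelled unstimulated cells, a log2 fold change of 3.08 ± 0.18 (SE, edgeR adjusted p = 4.5e-15). In WT cells it averaged 63.2 ± 6 CPM in stimulated and 11.6 ± 3.2 CPM in unstimulated cells, a log2 fold change of 2.45 ± 0.18 (SE, edgeR adjusted p = 1.2e-12). Its stimulation effect was larger in KO-labelled cells by 0.63 ± 0.24 on the log2 scale (SE, edgeR adjusted p = 0.046). That call was lost with the lower unstimulated share subtracted (edgeR adjusted p = 0.36). Fabp5 fell with XCT790 in KO-labelled cells, to 59.2 ± 8.6 CPM, by 0.61 on the log2 scale (edgeR adjusted p = 0.018), and stood at 69.7 ± 2.7 CPM with XCT790 in WT cells (edgeR adjusted p = 0.57). Ppard, the gene of PPAR delta, showed log2 fold changes of stimulation of -0.09 in KO-labelled and -0.08 in WT cells (edgeR adjusted p = 0.48 and 0.52).

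Transcripts of the enzymes that make retinoic acid from retinal or degrade it were scarce. Rdh10, the retinol dehydrogenase of the first step, averaged 8.45 ± 1.86 CPM in KO-labelled and 9.41 ± 0.61 CPM in WT stimulated cells, and its stimulation effect passed the test in neither genotype (edgeR adjusted p = 0.79 and 0.69). Rdh13, Rdh14 and Dhrs4 of the same list stood higher than Rdh10 in stimulated cells of both genotypes. The retinal dehydrogenase gene Aldh1a1 averaged 0.463 ± 0.65 CPM in KO-labelled and 0.724 ± 0.708 CPM in WT stimulated cells, and Aldh1a2 0.637 ± 0.324 and 0.661 ± 0.427 CPM. Aldh1a2 rose in WT cells, where unstimulated libraries averaged 0.128 ± 0.188 CPM (edgeR adjusted p = 0.0046), and the change in KO-labelled cells did not pass (edgeR adjusted p = 0.064). Aldh1a3 with 8 reads over all libraries, Cyp26a1 with 4 and Cyp26b1 with 86, the last 2 encoding enzymes that degrade retinoic acid, did not pass the filter. Among more general enzymes Adh5, a class III alcohol dehydrogenase, averaged 287 ± 28.1 CPM in KO-labelled and 247 ± 22.6 CPM in WT stimulated cells, against 107 ± 4 and 155 ± 30.9 CPM in the unstimulated cells. Of the 15 enzyme genes tested 6 rose and 6 fell in KO-labelled cells, when 39.3% of all genes rose and 42.4% fell. In WT cells 5 rose and 6 fell, when 34.5% of all genes rose and 38.8% fell, so these counts are near the shares over all genes.

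Of the remaining receptor genes Rarb had 19 reads in all 32 libraries, and Rxrg, with 37 reads in KO-labelled and 40 in WT unstimulated cells, had none in KO-labelled stimulated cells and 10 in WT stimulated cells. Stra6, the membrane receptor for retinol carried in blood, stood at 0.242 ± 0.14 CPM in KO-labelled and 0.496 ± 0.081 CPM in WT stimulated cells, and Crabp1, the close relative of Crabp2, had no read. Of the 13 receptor and partner genes tested 8 fell after stimulation in each genotype, when 42.4% of all genes fell in KO-labelled and 38.8% in WT cells. Those 8 include Nr1h3, the oxysterol receptor LXR alpha. Nr1h3 averaged 0.476 ± 0.276 CPM in KO-labelled stimulated and 22.9 ± 9.3 CPM in KO-labelled unstimulated cells (edgeR adjusted p = 1.5e-15). Macrophages also express Nr1h3 and Pparg. Csf1r was lower as well, and the part of macrophages in these falls was not tested.

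Of 19 known target genes of retinoic acid tested, 17 fell and 2 rose with stimulation in each genotype, when 42.4% of all genes fell in KO-labelled and 38.8% in WT cells. Their median log2 fold change was -2.36 in KO-labelled and -1.45 in WT cells, against -0.07 and -0.11 over all genes. The 24 myeloid markers were lower too, with mean sums of 169 CPM in KO-labelled stimulated cells, against 1712 CPM in KO-labelled unstimulated cells. In WT cells the mean sums were 1052 CPM in stimulated and 3460 CPM in unstimulated libraries, and their part in the target gene falls was not tested. Itga4, the alpha chain of the gut homing integrin, averaged 41.3 ± 12.7 CPM in KO-labelled stimulated and 529 ± 74.8 CPM in KO-labelled unstimulated cells (edgeR adjusted p = 4.4e-12). Itgb7, the beta chain, averaged 79.3 ± 10 CPM in KO-labelled stimulated and 874 ± 38 CPM in KO-labelled unstimulated cells. In WT cells it averaged 267 ± 73.8 CPM in stimulated and 877 ± 42.8 CPM in unstimulated libraries. Ccr9 averaged 0.881 ± 0.381 CPM in KO-labelled stimulated and 9.69 ± 2.46 CPM in KO-labelled unstimulated cells. The WT values of Ccr9 were 6.98 ± 3.98 CPM in stimulated and 21.8 ± 5.4 CPM in unstimulated libraries. Angptl4, a lipoprotein lipase inhibitor, went the other way, at 16.1 ± 3 CPM in KO-labelled stimulated against 2.78 ± 0.72 CPM in KO-labelled unstimulated cells (edgeR adjusted p = 6.6e-14).

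Coregulators divided. In KO-labelled cells 6 of 25 rose and 15 fell, when 39.3% of all genes rose and 42.4% fell. In WT cells 6 rose and 10 fell, when 34.5% of all genes rose and 38.8% fell. Prmt1, an arginine methyltransferase, averaged 624 ± 96.4 CPM in KO-labelled stimulated and 98.5 ± 5.3 CPM in KO-labelled unstimulated cells (edgeR adjusted p = 3.6e-17), and 472 ± 56.9 CPM in WT stimulated and 125 ± 23.9 CPM in WT unstimulated cells (edgeR adjusted p = 6.1e-14). Carm1, a related coactivator, and Ezh2, a histone methyltransferase, rose in KO-labelled cells by log2 fold changes of 1.66 and 1.92 (edgeR adjusted p = 2.6e-12 and 3.4e-10).

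**Figure D5:**
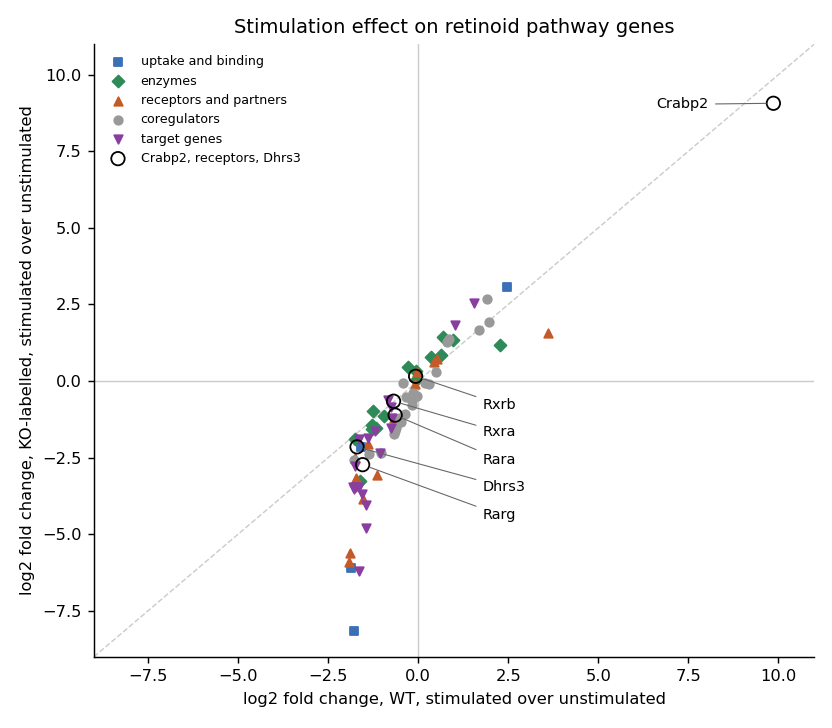
Log2 fold change of stimulation in KO-labelled cells (vertical axis) and WT cells (horizontal axis) for the 76 other retinoid pathway genes, by list, and for Crabp2, the 4 receptor genes and Dhrs3 (open circles); the dashed line marks equal change. Crabp2 stands alone at 9.07 and 9.86, and falling genes reach lower values in KO-labelled cells; Stra6l, at -8.14, and 2 others had no read in KO-labelled stimulated cells, so their fitted values are not bounds.

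With the inhibitors more of the other pathway genes were called in WT than in KO-labelled cells. Both inhibitor comparisons of a genotype use the same stimulated libraries. XCT790 changed 8 of the 76 genes in KO-labelled cells (edgeR adjusted p under 0.05, 5 higher and 3 lower), when 11.3% of all genes changed, 6.2% higher and 5.07% lower. With the run of library numbers as a replicate block the count was 16, and without XCT790 library 3 it was 5. In WT cells XCT790 changed 28 (3 higher and 25 lower), when 28.6% of all genes changed, 8.4% higher and 20.2% lower. With the share subtracted the WT count was 7, of 6.8% of all genes, or 14 with the lower estimate. CompA changed 16 in KO-labelled cells (10 higher and 6 lower, when 19.3% of all genes changed, 10.2% higher and 9.11% lower) and 37 in WT cells (8 higher and 29 lower, when 32.8% of all genes changed, 11.6% higher and 21.3% lower). The WT count for CompA was 18 with the share subtracted, when 21.7% of all genes changed. Asb2, a known retinoic acid target, was among the genes that changed in KO-labelled cells. It fell to 5.28 ± 1.87 CPM with XCT790 and 4.95 ± 2.27 CPM with CompA, against 9.59 ± 3.37 CPM in stimulated cells (edgeR adjusted p = 0.0495 and 0.02). Nr2c2, an orphan receptor that binds the same repeats, rose to 81.6 ± 8.3 CPM with XCT790 and 78.1 ± 11.3 CPM with CompA, against 49.7 ± 7.5 CPM in stimulated cells (edgeR adjusted p = 0.00074 and 0.00075). Dhrs7, a dehydrogenase of the same superfamily as Dhrs3, rose to 25.4 ± 2.8 and 28.2 ± 2.5 CPM, against 17.5 ± 2.8 CPM in stimulated cells (edgeR adjusted p = 0.0082 and 0.00052).

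Between genotypes 21 of the 76 genes differed in unstimulated cells (edgeR adjusted p under 0.05, 8 higher and 13 lower in KO-labelled cells), when 36.1% of all genes differed, 12.5% higher and 23.6% lower. Vdr, the vitamin D receptor and an RXR partner, averaged 8.35 ± 3.12 CPM in KO-labelled and 1.04 ± 0.76 CPM in WT unstimulated cells, a log2 difference of 2.96 ± 0.34 (SE, edgeR adjusted p = 9.5e-07). In stimulated cells 25 differed (4 higher and 21 lower, when 25.2% of all genes differed, 7.31% higher and 17.9% lower). With the unstimulated share subtracted 6 did, when 5.985% of all genes differed. With XCT790 11 differed (10 higher and 1 lower, when 9.51% of all genes differed, 7.4% higher and 2.11% lower) and with CompA 7 (all higher, when 7.7% of all genes differed, 5.82% higher and 1.88% lower). Under CompA no gene was called lower by edgeR or limma-voom and 1 by DESeq2, and 4 were lower at an unadjusted edgeR p under 0.05. Itga4 was among the genes higher with both inhibitors, at 41.9 ± 9.3 CPM in KO-labelled and 17.1 ± 1.9 CPM in WT cells with XCT790, and at 53.8 ± 16.4 CPM in KO-labelled and 21.6 ± 2.5 CPM in WT cells with CompA (edgeR adjusted p = 0.0035 and 0.0031). Itgb7 stood at 104 ± 19 CPM in KO-labelled and 52 ± 10.5 CPM in WT cells with XCT790 (edgeR adjusted p = 0.00058). Vdr and Itgb7 lie on chromosome 15 with Nr4a1, Itgb7 nearer to it than Rarg. For both genes an effect of the KO label and an effect of linked sequence cannot be told apart.

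The treatment effects themselves were set against each other between genotypes. Among the 6 genes the largest such differences, KO-labelled minus WT on the log2 scale, were -1.19 ± 0.22 for Rarg with stimulation, 1.40 ± 0.23 and 1.55 ± 0.23 for Rarg with XCT790 and CompA, and 1.69 ± 0.55 and 1.51 ± 0.54 for Dhrs3 (SE). All 5 depend on the WT stimulated libraries and turned with the unstimulated share subtracted: the Rarg values were then 0.45 ± 0.53, -0.25 ± 0.55 and -0.09 ± 0.55, and the Dhrs3 values -1.31 ± 0.77 and -1.48 ± 0.77 (SE). With the lower estimate they were -0.07, 0.26 and 0.43 for Rarg and 0.30 and 0.14 for Dhrs3, so their size and sign depend on the share taken. Of the 76 other genes 35 differed in the stimulation effect (edgeR interaction, adjusted p under 0.05), 11 higher and 24 lower, when 33.7% of all genes did, 17.2% higher and 16.5% lower. The XCT790 effect differed for 28, 24 higher and 4 lower, when 24.7% of all genes did, 17.5% higher and 7.23% lower. The CompA effect differed for 25, 21 higher and 4 lower, when 21.6% of all genes did, 15.6% higher and 5.99% lower. With the unstimulated share subtracted, a step that can also lower power, these counts were 4, 0 and 0. Of all genes, 7.36% then differed in the stimulation effect and 0 in the XCT790 and CompA effects. Adh5 was among the 4, with edgeR adjusted p = 0.0008 before and 0.034 after the subtraction.

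Genes whose means over the 8 groups ran most like those of each gene were listed by Pearson's r of log2(mean CPM + 0.5), among genes with at least 10 CPM in their highest group. The 8 means share libraries and a large contrast between stimulated and unstimulated cells, so high values are common. For Crabp2 they were Alg13 (r = 0.9955), Abhd17c (0.9942) and Alkbh8 (0.9931), for Rarg Gm1966 (0.9979), Fam160b2 (0.9966) and Scd1 (0.9947), and for Rara Neat1 (0.9932), Dlg4 (0.993) and Zfp319 (0.992). For Rxra they were Glyctk (0.9954), Adh1 (0.9874) and Tor1aip1 (0.9852), the second of them an alcohol dehydrogenase of the enzyme list, at 2.42 CPM in KO-labelled and 1.69 CPM in WT cells with CompA, against 5.8 CPM in KO-labelled and 8.1 CPM in WT stimulated cells. For Rxrb they were Rbm4b (0.9585), Fntb (0.9555) and Fads1 (0.9267). For Dhrs3 they were H2-Eb2 (0.9967), Cd200r1 (0.9965) and Ifi204 (0.9965), of which H2-Eb2 is a class II histocompatibility gene of antigen presenting cells. Among the 6 genes themselves, r between the group means was 0.95 for Rarg with Dhrs3 and -0.93 for Crabp2 with Rarg.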

How the data were processed

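Poly(A) RNA of 32 libraries was counted per gene. The authors deposited raw counts per gene, made with Trimmomatic 0.36, HISAT2 2.1.0, SAMtools and HTSeq 0.9.1 on mm10, per the submitters' processing notes, which also name R 3.4.4 and DESeq2 1.18.1. Libraries were directional per the labels, but the sources used here do not state the strand setting of the counting, so overlapping genes may share reads. The summary lines for reads without a gene (5.31 to 13.3 percent for no feature, 1.1 to 2.32 percent ambiguous) were left out of library sizes and tests.

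The 6 genes, the gene lists and the subtraction of an unstimulated share were chosen with earlier results of these data known. Groups follow the labels. Counts were fitted across 12332 genes and all 8 groups with edgeR 4.0.16 in R 4.3.3 (TMM factors, quasi-likelihood test, Benjamini-Hochberg adjustment, threshold 0.05), for 10 comparisons and 3 interactions. No label ties replicate libraries to different mice, so p-values reflect only how far these libraries vary, possibly for technical reasons. Levels are TMM-scaled CPM, with lengths and positions from GENCODE M21. The fits of WT cells with XCT790 against WT stimulated cells were tested on simulated counts. The interactions and the subtraction of an unstimulated share were not.

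The unstimulated share is the ratio of summed CPM, in each WT stimulated library over the WT unstimulated mean, of 112 genes with at least 5 CPM there and under 2 percent of the unstimulated mean of the same genotype in each other stimulated group. The lower estimate was chosen after seeing the data. Alternatives were DESeq2 1.42.0, limma-voom (limma 3.58.1), library totals, upper-quartile factors, no filter, the compared groups alone, a replicate block, and leaving out each library or the second KO-labelled libraries. Library numbers fall into 8 runs of 4, each of a single genotype with 1 library per treatment, a pairing taken from the labels' numbers and checked on the data. Deviations of same-run libraries correlated in every pair of KO-labelled groups (r from 0.186 to 0.686). In WT cells r was 0.368 to 0.559 for unstimulated with stimulated and 0.17 to 0.492 for XCT790 with CompA. It was weaker for stimulated with XCT790 (0.0595 to 0.206) and with CompA (0.0143 to 0.307), and took both signs for unstimulated with either inhibitor.

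Up to 8 called list genes with the largest change per comparison and a mean of at least 1 CPM were eligible to be named, with the genes called in an interaction (those given with values have at least 150 CPM in a group, or are Fabp5, a limit set after values were seen). Rarb, Rxrg, the Aldh1a and Cyp26 genes, Rdh10, Crabp1, Fabp5 and Stra6 were named in any case, and the 3 genes most alike each of the 6. Ppard, and the values of list genes in comparisons other than the ones that named them, were chosen after values were seen.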

Additional observations from a re-analysis of the deposited data

Results flagged for a closer look

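In 2 groups a single library stood apart from the other 3 by Dixon's ratio, which chance alone does for about 1 in 20 groups. Crabp2 was at 0.165 CPM in the third KO-labelled unstimulated library, from 4 reads, when the others had 1 read each. Rxra was at 20.9 CPM in the second WT library with CompA, against 17.1 to 17.4 CPM in the others.

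The effect of stimulation differed between KO-labelled and WT cells for 35 of the 76 other retinoid genes (edgeR interaction, adjusted p under 0.05), when 33.7% of all genes differed. The effect of XCT790 differed for 28 (24.7% of all genes) and that of CompA for 25 (21.6% of all genes). With the unstimulated share subtracted from the WT stimulated libraries, a step that can also lower power, these counts were 4, 0 and 0 of 75. Of all genes, 7.36% then differed in the stimulation effect and 0 in the XCT790 and CompA effects. Adh5 was still called for stimulation (edgeR adjusted p = 0.034). In the XCT790 and CompA interactions 2 and 6 of the 75 genes had an unadjusted edgeR p under 0.05.

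The stimulation effect, KO-labelled minus WT on the log2 scale, was 0.75 for Adh5 (edgeR adjusted p = 0.0008), 0.63 for Fabp5, 0.74 for Prmt1 (edgeR adjusted p = 0.0022), -2.12 for Itga4 (edgeR adjusted p = 0.00026), -1.75 for Itgb7, -0.78 for the coactivator gene Ncoa2 and -0.77 for the adaptor gene Nedd9. The XCT790 effect differed by -0.41 for Adh5, -0.75 for Fabp5, 2.75 for Itgb7 and -0.63 for Prmt1. The CompA effect differed by -0.45 for Adh5, -0.66 for Fabp5, 2.71 for Itgb7 and -0.58 for Prmt1. All of these differences use the WT stimulated libraries, where Itgb7 averaged 267 CPM. With the unstimulated share subtracted the stimulation value of Itgb7 turned and was no longer called, and no gene was called for XCT790 or CompA. Itgb7 lies on the same chromosome as Nr4a1, so for it effects of the KO label and of linked sequence cannot be told apart.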

How the results depend on the processing

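Depth limits Crabp2 in unstimulated cells (7 and 6 reads) and Dhrs3 after stimulation. Library totals moved the median of all genes by -0.33 in KO-labelled stimulated against unstimulated cells, where the share of called genes that were higher became 37.5% instead of 48.1%, and by 0.21 between KO-labelled and WT unstimulated cells, where it became 71.7%. The largest shifts came with the unstimulated share subtracted. Counts of the other retinoid genes called then were 7 (lower estimate 14) for XCT790 and 18 for CompA in WT cells, 6 (10) for KO-labelled against WT stimulated cells, 5 with XCT790, 4 with CompA, and 4 (5), 0 (2) and 0 (2) for the interactions of stimulation, XCT790 and CompA. In the same order, the shares of all genes called by the first estimate were 6.8%, 21.7%, 5.985%, 5.9%, 4.66%, 7.36%, 0 and 0. Crabp2 then had log2 fold changes of 10.34 (10.2) for WT stimulation, -1.13 (-0.98) for XCT790 and -0.55 (-0.40) for CompA in WT cells. Directions that turned with it include Rarg at 0.60 (0.083) with XCT790 and 0.39 with CompA and Dhrs3 at 0.77 and 0.97 in WT cells, and between KO-labelled and WT stimulated cells Rara at 0.21 (0.09), Rarg at 1.22 (0.70) and Dhrs3 at 2.36 (0.74). Of called genes, Cd38 turned with XCT790 and CompA in WT cells and between stimulated genotypes (edgeR adjusted p = 0.993, 0.724 and 0.108), as did Tgm2, Thra and Itgb7 between stimulated genotypes (edgeR adjusted p = 0.414, 0.414 and 0.697) and Itgb7 in the stimulation interaction (edgeR adjusted p = 0.683). With only the groups compared, the counts were 3 for XCT790 and 8 for CompA in KO-labelled cells and 13 for KO-labelled against WT stimulated cells. The replicate block gave 16 genes in place of 8 for XCT790 in KO-labelled cells and moved no other count by over 1.5 times. WT stimulation of Crabp2 was 9.67 with limma-voom and 9.65 with upper-quartile factors, and the unstimulated genotype difference 0.081 without the second KO-labelled libraries and 0.11 with library totals. Leaving out 1 library at a time gave 9.56 to 10.37 for Crabp2 in WT and 8.60 to 9.78 in KO-labelled stimulation, and -0.79 to 0.48 for its unstimulated genotype difference, and in KO-labelled cells -1.49 to -0.65 with XCT790 and -1.66 to -0.62 with CompA. It gave 5 to 12 genes for XCT790 in KO-labelled cells and 22 to 42 for the stimulation interaction, with 22 without the second WT stimulated and 23 without the first WT unstimulated library. The cause of these shifts was not tested. With the unstimulated share subtracted, counts also fell in comparisons without WT stimulated libraries. Between genotypes with XCT790 the count went from 11 to 5, while Rarg was 0.975 ± 0.165 before and 0.973 ± 0.379 after (SE). Fewer calls after the subtraction thus cannot be told apart from lost power.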
